A study of Homo sapiens with 16 samples.

Results

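MHC class I genes and the genes of peptide loading were followed through both RNA-Seq experiments on MUTZ-3 cells. The 9 genes were picked by name from 60623 listed genes, with no threshold on their values: *HLA-B*, *HLA-C*, *HLA-E*, *HLA-F*, *B2M*, *TAP1*, *TAP2*, *TAPBP* and *NLRC5*. MUTZ-3 is an AML cell line with inv(3) that expresses *EVI1*, and all cells were grown in medium that held GM-CSF and supernatant of the bladder carcinoma line 5637. In the PARPi experiment, cells were harvested untreated at 0 h, or after 12, 24 and 48 h in olaparib at 10 µM, in talazoparib at 1 µM or in their vehicle DMSO. In the knockdown experiment, cells carried the lentiviral vector pLKO.1 with a non-targeting control (NTC) or with shEVI1-2531 or shEVI1-2532, were selected with puromycin, and were harvested at day 3 and day 6. Each of the 16 conditions was sequenced once in this 1 cell line, so hours and days are the only replication and p-values measure the spread between them. Where both shRNAs are pooled, the spread between shRNAs enters as well.

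MHC class I molecules show peptides from the inside of a cell to CD8 T cells. A heavy chain pairs with beta-2 microglobulin, and the peptides, cut by the proteasome, are pumped into the endoplasmic reticulum by the transporter TAP and loaded with the help of tapasin. Transcription of these genes is driven by a promoter module that the coactivator NLRC5 binds through RFX, CREB/ATF and NF-Y factors, by NF-kappaB, and by interferon through IRF factors. Loss of class I expression is one known way by which leukemia cells escape T cells, and monocytes normally carry much class I on their surface.

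Library totals ranged from 55999673 to 72681943 counts in the PARPi experiment and from 95523038 to 120716213 in the knockdown. A count of 3, taken as the smallest level a library can show, equals 0.0413 to 0.0536 CPM in the former and 0.0249 to 0.0314 CPM in the latter. Levels are given as TMM-scaled CPM, which are read counts scaled to depth and corrected for library composition, and were compared between libraries and not between genes. The shRNAs target *EVI1*, which is transcribed from the MECOM locus, and the files give 1 count for the locus that does not part *EVI1* from the longer MDS1-EVI1 form. MECOM was at 40.6 CPM in NTC, 13.2 with shEVI1-2531 and 5.14 with shEVI1-2532 at day 3, and at 37.2, 17.5 and 4.31 CPM at day 6. It was below NTC with both shRNAs on both days, and lower with shEVI1-2532 than with shEVI1-2531. At 48 h MECOM was at 61.7 CPM with DMSO, 23.4 with olaparib and 10.05 with talazoparib. The RNA comes from whole cultures, so fewer cells of a type and less RNA per cell cannot be told apart.

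The sequences before the transcription starts are shown because the genes share letters there that class I regulators are known to read. RefSeq promoter windows of GRCh38.p14 were matched for 7 of the 9 genes, and 250 bases before the start are printed for 5 of them, in the direction of transcription. *HLA-E* and *NLRC5* were not matched. Capitals mark the interferon response form (GAAA or GAA, any 2 bases, then GAAA), the Y box CCAAT, the cAMP response core TGACG and the kappaB form (GGGGA, any base, then TCCCC), on either strand, and adjoining matches run together.
HLA-B, chr6:31357180-31357429, minus strand: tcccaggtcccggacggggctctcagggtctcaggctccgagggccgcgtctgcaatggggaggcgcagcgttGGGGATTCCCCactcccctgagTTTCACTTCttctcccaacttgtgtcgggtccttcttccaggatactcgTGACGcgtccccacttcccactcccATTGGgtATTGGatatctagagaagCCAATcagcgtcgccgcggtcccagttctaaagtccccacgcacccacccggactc
HLA-C, chr6:31272093-31272342, minus strand: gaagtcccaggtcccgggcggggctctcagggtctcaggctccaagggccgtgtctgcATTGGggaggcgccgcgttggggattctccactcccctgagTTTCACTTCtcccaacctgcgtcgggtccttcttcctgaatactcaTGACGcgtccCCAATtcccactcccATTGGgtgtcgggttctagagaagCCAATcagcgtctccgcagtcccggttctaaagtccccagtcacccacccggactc
B2M, chr15:44711267-44711516, plus strand: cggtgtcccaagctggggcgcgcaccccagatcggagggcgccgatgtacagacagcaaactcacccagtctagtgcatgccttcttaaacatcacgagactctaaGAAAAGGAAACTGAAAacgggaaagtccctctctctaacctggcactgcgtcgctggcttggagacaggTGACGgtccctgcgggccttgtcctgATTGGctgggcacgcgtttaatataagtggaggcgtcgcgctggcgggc
TAP1, chr6:32853705-32853954, minus strand: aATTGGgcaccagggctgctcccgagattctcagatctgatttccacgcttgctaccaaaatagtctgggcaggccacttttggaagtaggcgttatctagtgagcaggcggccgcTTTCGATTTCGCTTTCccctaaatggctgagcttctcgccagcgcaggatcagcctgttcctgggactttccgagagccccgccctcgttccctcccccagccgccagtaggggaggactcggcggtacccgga
TAPBP, chr6:33314079-33314328, minus strand: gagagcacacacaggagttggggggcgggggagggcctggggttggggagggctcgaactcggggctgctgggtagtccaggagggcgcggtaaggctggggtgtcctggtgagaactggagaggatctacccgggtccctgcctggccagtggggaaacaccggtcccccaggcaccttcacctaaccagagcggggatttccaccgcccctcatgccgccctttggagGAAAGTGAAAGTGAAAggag

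All 7 genes held an interferon response form in 1 of their windows, against 9.08% of 35116 windows of the same length. In *HLA-B* it lay at bases -155 to -147 before the start and in *HLA-C* at -151 to -143, whereas *TAPBP* held overlapping matches between -20 and -5. *TAP1* held overlapping matches from -134 to -119 before the start shown and none before its other listed start. CCAAT was found in 5 of the 7 genes and in 32% of all windows, and TGACG in 4 of the 7 and in 21.2% of windows. *TAPBP* had neither. The kappaB form was found in *HLA-B* alone of these 7 genes and in 0.0655% of windows. Only this strict form was sought, so looser kappaB letters in the other genes would not be marked. A gamma-activated form, TTCNNNGAA, was found before the other start of *TAP1* only, and in 6.57% of windows. The windows of *HLA-B* and *HLA-C* were identical at 89% of aligned positions, and that of *HLA-F* at 80.4% with *HLA-B* and 78.7% with *HLA-C*. A match describes letters of the reference and is not a bound site, and the alleles of MUTZ-3 were not read.

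In the files' GRCh38 coordinates, *HLA-F* (chr6:29722775-29738528, plus strand), *HLA-E* (chr6:30489509-30494194, plus), *HLA-C* (chr6:31268749-31272130, minus), *HLA-B* (chr6:31269491-31357188, minus), *TAP2* (chr6:32821833-32838770, minus), *TAP1* (chr6:32845209-32853978, minus) and *TAPBP* (chr6:33299694-33314387, minus) lie in the MHC on chromosome 6. *B2M* (chr15:44711487-44718877, plus) and *NLRC5* (chr16:56989485-57083531, plus) lie outside it. The listed *HLA-B* model runs across most of *HLA-C*, though in the GENCODE 29 annotation the exons of the pair share only 35 bases, 1.40% of those of *HLA-C*. Heavy chain genes are near-identical and reads can move between them, so values of *HLA-B* and *HLA-C* are uncertain where they part. *TAP1* shares 9.49% of its exon bases with the antisense RNA PSMB8-AS1, which had 75 to 229 counts per library, and *HLA-F* shares 12.3% with HLA-F-AS1, which had 5 to 20.

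Under PARPi, none of the 9 genes was 2-fold away from DMSO at 12 h, and the heavy chain genes, *B2M*, *NLRC5* and *TAP1* were more than 2-fold above it at 48 h. At 12 h counting intervals of 6 of the 9 genes already lay above 0 with each inhibitor, and *TAP1* had the highest ratios, 1.69-fold with olaparib and 1.85-fold with talazoparib. At 48 h, 7 of the 9 genes were at least 2-fold higher with olaparib, against 12.2% of 17218 genes, and 7 of 9 with talazoparib, against 17% of 17217. The exceptions with both inhibitors were *TAP2* and *TAPBP*. At 12 h the count past 2-fold was 0 of 9 with either inhibitor, against 3.25% and 3.43% of genes, and at 24 h 0 of 9 with olaparib, against 6.15%, and 3 of 9 with talazoparib, *HLA-B*, *HLA-F* and *TAP1*, against 8.96%. The median log2 ratio of the 9 genes to DMSO was 0.21 and 0.25 at 12 h, 0.52 and 0.76 at 24 h, and 1.30 and 1.60 at 48 h for olaparib and talazoparib, while that of all genes tested lay between -0.02 and 0.00. TMM scaling brings most genes near 0 by design, so the median of all genes is no independent reference. Both inhibitors were set against the same DMSO libraries, so their ratios are not independent.

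*HLA-B* encodes a heavy chain that presents peptides to T cells. It was at 92.8 CPM in untreated cells, at 65.4, 62.6 and 91.3 CPM with DMSO at 12, 24 and 48 h, at 79.1, 101 and 346 with olaparib, and at 88.5, 145 and 518 with talazoparib. Each treated library was above DMSO of its hour, and both 48 h libraries stood apart from all others. The talazoparib library at 48 h was 5.68-fold above DMSO, a log2 ratio of 2.51 with a 95% counting interval of 2.46 to 2.55. With olaparib the fold was 3.80. Intervals of this kind cover counting error only.

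*HLA-C* presents peptides and is also a ligand of NK cell receptors. Its level was 238 CPM untreated, 198, 244 and 257 with DMSO over the 3 hours, 232, 291 and 638 with olaparib, and 231, 364 and 756 with talazoparib. Treated libraries were above DMSO at every hour, by 1.17-fold and 1.17-fold at 12 h and 2.48-fold and 2.94-fold at 48 h. With the counts of *HLA-B* and *HLA-C* added together, which removes any trade of reads between them, the 48 h folds were 2.83 and 3.66.

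*HLA-E*, the ligand of the NK receptor pair CD94/NKG2, was at 547 CPM untreated. With DMSO it was at 417, 382 and 533 CPM, with olaparib at 460.1, 529 and 1197, and with talazoparib at 497, 644 and 1652. At each hour the order was DMSO, olaparib, talazoparib from low to high. *HLA-F*, a less common heavy chain gene, was scarce, with 21 to 287 counts per PARPi library. It was at 0.797 CPM untreated, at 0.473, 0.373 and 1.17 with DMSO, at 0.321, 0.630 and 4.88 with olaparib, and at 0.441, 1.47 and 6.03 with talazoparib. Both 12 h ratios had counting intervals that included 0, and the 48 h libraries were 4.16-fold and 5.14-fold above DMSO.

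*B2M*, the light chain that each heavy chain needs, was at 651 CPM untreated. It was at 597, 801 and 1134 CPM with DMSO, 597, 936 and 3136 with olaparib, and 573, 1308 and 3829 with talazoparib. At 12 h the talazoparib library was slightly below DMSO, with a log2 ratio of -0.06 (interval -0.08 to -0.04), and at 48 h 3.38-fold above it. *NLRC5*, the class I transactivator, was at 7.62 CPM untreated, 7.40, 6.90 and 7.39 with DMSO, 7.52, 10.8 and 15.3 with olaparib, and 7.82, 13.7 and 22.3 with talazoparib. Its libraries without inhibitor lay close together, and from 24 h on all treated libraries were above them. At 12 h both counting intervals of *NLRC5* included 0.

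*TAP1* and *TAP2* encode the subunits of the peptide transporter. *TAP1* was at 36.1 CPM untreated, 38.5, 36.8 and 41.9 with DMSO, 64.9, 66.2 and 103 with olaparib, and 71.4, 79.3 and 97.3 with talazoparib. All 6 treated libraries were above all 4 without inhibitor. Its log2 ratio to DMSO was 0.75 and 0.89 at 12 h and 1.30 and 1.22 at 48 h for olaparib and talazoparib. *TAP2* ranged from 25.1 to 31.7 CPM in the 4 libraries without inhibitor and from 35.2 to 44.3 in the 6 with one, without overlap. *TAPBP*, which encodes tapasin, the bridge between TAP and the class I molecule, was at 145 CPM untreated, 112, 103 and 87.6 with DMSO, 129, 121 and 114 with olaparib, and 139, 118 and 149 with talazoparib. Treated libraries were above DMSO of the same hour, but DMSO itself declined, and only 1 treated library, talazoparib at 48 h, was above the untreated one.

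**Figure D1:**
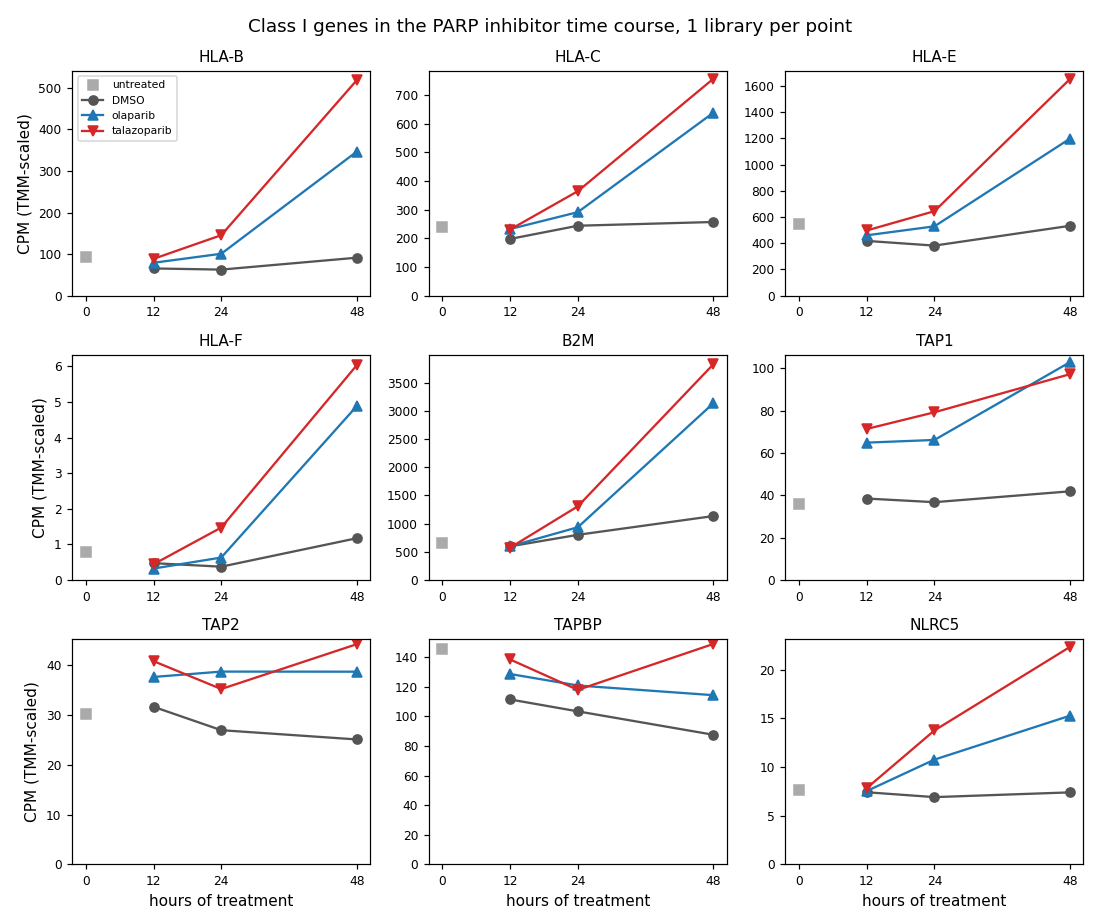
Level of each of the 9 genes (vertical axis, TMM-scaled CPM from 0, a scale of its own per panel) against hours of treatment (horizontal axis), with 1 library per point: untreated, DMSO, olaparib and talazoparib. The heavy chain genes and *B2M* bend upwards between 24 and 48 h with both inhibitors. *NLRC5* rises from 12 to 48 h without such a bend, and *TAP1* is above DMSO from 12 h on.

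The test of the mean effect of both inhibitors over the 3 hours asks for a steady difference from DMSO. With edgeR's quasi-likelihood test and Benjamini-Hochberg adjustment over all 17218 genes, only *TAP1* rose, 1 of the 9, against 3.16% of genes tested that were called higher. Its mean log2 fold change was 1.02 (SE 0.12, adjusted p = 0.0121, higher in 6 of 6 pairs). It passed for olaparib alone (edgeR log2 0.97, adjusted p = 0.0307, background 0.639% called higher) and for talazoparib alone (edgeR log2 1.07, adjusted p = 0.0184, background 3%). The other 8 genes had mean log2 values from 0.35 for *TAPBP* to 1.18 for *HLA-F* and edgeR adjusted p from 0.0505 to 0.135, so they missed the threshold. Without the 24 h libraries *TAP1* missed it too (edgeR log2 1.04, adjusted p = 0.340, the highest of 9 alternatives that ranged from 2.37e-10) and no gene of the table passed, while 3 of the 9 genes had an unadjusted p under 0.05. Without the 12 h libraries 8 of the 9 passed, when 3768 genes in all were called in either direction instead of 718, and without the 48 h libraries 2, *HLA-B* and *TAP1*, when 1239 were. DESeq2 called 7 of the 9 and 3474 genes in all, and without the hour in the model 0 of the 9 passed and 16 in all.

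The test of the change with time asks whether the inhibitor effect grew from 12 to 48 h, in log2 units per doubling of the hours. Of the 9 genes, 6 passed with a growing effect, against 10% of genes tested. The slope was 0.92 for *HLA-B* (SE 0.13, edgeR adjusted p = 4.16e-10), 0.81 for *B2M* (SE 0.14, edgeR adjusted p = 9.39e-08) and 1.23 for *HLA-F* (SE 0.26, edgeR adjusted p = 2.63e-05). *HLA-C* had 0.59 and *HLA-E* 0.59 (both edgeR adjusted p = 0.000141), and *NLRC5* had 0.62 (edgeR adjusted p = 0.000255). The 3 genes of peptide loading were lower on this scale: *TAP1* had 0.21, *TAP2* 0.20 and *TAPBP* 0.15, and missed the threshold (edgeR adjusted p = 0.297, 0.333 and 0.485). Whether those slopes differ from the other 6 was not tested. The fit had 2 residual degrees of freedom, and edgeR pooled the spread over all genes so fully that a gene's own scatter hardly entered its error.

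Talazoparib at 1 µM was above olaparib at 10 µM at 48 h for all genes but *TAP1*, yet no difference passed. The mean difference over the 3 hours, talazoparib minus olaparib, was 0.45 on the log2 scale for *HLA-B* (95% interval -0.29 to 1.19), 0.30 for *HLA-E* (-0.22 to 0.82), 0.25 for *B2M* (-0.43 to 0.93) and 0.10 for *TAP1* (-0.19 to 0.39). None of the 9 differences had an unadjusted p under 0.05 with edgeR or DESeq2, and their edgeR adjusted p lay between 0.952 and 0.960. Of 17218 genes edgeR called 0, with 354 at an unadjusted p under 0.05, and DESeq2 called 1. Intervals this wide allow a difference as large as 2-fold for *HLA-B*, and doses differed.

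Without inhibitor, the genes moved too. From 12 to 48 h in DMSO, *HLA-F* had a log2 ratio of 1.31 (interval 0.72 to 1.91) and *B2M* 0.93 (0.91 to 0.94), while *NLRC5* had -0.00 and *TAPBP* -0.35. *HLA-F* alone of the 9 was past 2-fold, against 6.79% of 17215 genes. Between the NTC libraries, day 6 against day 3, *B2M* had -0.96 and *TAPBP* 1.03, with *TAP1* at 0.64. *TAPBP* alone was 2-fold higher there, against 5.48% of 18592 genes. Single libraries carry no test, and the NTC values enter each ratio of the knockdown.

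After *EVI1* knockdown, most class I genes were higher too. *HLA-C*, *HLA-E*, *HLA-F*, *B2M*, *TAP2* and *NLRC5* were above NTC with both shRNAs on both days. *HLA-B*, *HLA-E*, *B2M* and *NLRC5* were higher with shEVI1-2532 than with shEVI1-2531, and *TAPBP* was below NTC with shEVI1-2532. With shEVI1-2532, 6 of the 9 genes were at least 2-fold above NTC at day 3 and 5 of 9 at day 6, against 14% of genes on each day, which became 3 and 3 of 9 when libraries were scaled to their totals without TMM. With shEVI1-2531 they were 3 of 9 at day 3, against 7.96%, and 0 of 9 at day 6, against 7.35%. The median log2 ratio of the 9 was 0.78 and 0.47 with shEVI1-2531 and 1.15 and 1.01 with shEVI1-2532 at days 3 and 6, against -0.02 to 0.03 over all genes tested. Here too TMM scaling brings most genes near 0 by design. Both shRNAs were set against the same NTC libraries.

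*NLRC5* had the highest ratios of the 9 genes with shEVI1-2532 on both days. It was at 4.24 CPM in NTC, 6.20 with shEVI1-2531 and 24.8 with shEVI1-2532 at day 3, and at 5.97, 11.3 and 34.0 CPM at day 6. The levels stood in the order NTC, shEVI1-2531, shEVI1-2532 on both days. With shEVI1-2532 *NLRC5* was 5.85-fold and 5.69-fold above NTC (log2 intervals 2.41 to 2.68 and 2.40 to 2.62).

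*HLA-B* was at 78.9, 89.7 and 183 CPM in NTC, shEVI1-2531 and shEVI1-2532 at day 3, and at 112, 98.7 and 225 at day 6. Only the shEVI1-2532 libraries stood apart. *HLA-C*, in contrast, was at 166, 386 and 419 CPM at day 3 and 203, 322 and 448 at day 6, with both shRNAs above NTC. Since reads could move between these genes, the added counts of the pair are given as well, and they were 1.94-fold and 1.34-fold above NTC with shEVI1-2531 and 2.46-fold and 2.14-fold with shEVI1-2532.

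*HLA-E* was at 483, 699.8 and 977 CPM in NTC, shEVI1-2531 and shEVI1-2532 at day 3, and at 644, 704 and 1255 at day 6. *HLA-F* had 37 to 134 counts per library and was at 0.293, 0.764 and 0.978 CPM at day 3 and 0.548, 0.762 and 1.43 at day 6. Both genes were highest with shEVI1-2532 on each day. *B2M* was at 1143, 1444 and 2534 CPM at day 3 and 587, 811 and 1682 at day 6, so the order held although all 3 cultures were lower at day 6.

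Of the genes of peptide loading, *TAP1* was at 23.3, 50.9 and 35.5 CPM in NTC, shEVI1-2531 and shEVI1-2532 at day 3, and at 36.3, 39.99 and 34.9 at day 6. At day 6 the 3 libraries were close together. *TAP2* was at 17.9, 30.8 and 29.8 CPM at day 3 and 22.9, 35.7 and 29.96 at day 6, above NTC with both shRNAs. *TAPBP* was at 54.6, 106 and 50.8 CPM at day 3 and 112, 135 and 70.1 at day 6. It was above NTC with shEVI1-2531 and below NTC with shEVI1-2532 on both days, and at day 6 the log2 ratio of the latter was -0.67 (interval -0.71 to -0.63).

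**Figure D2:**
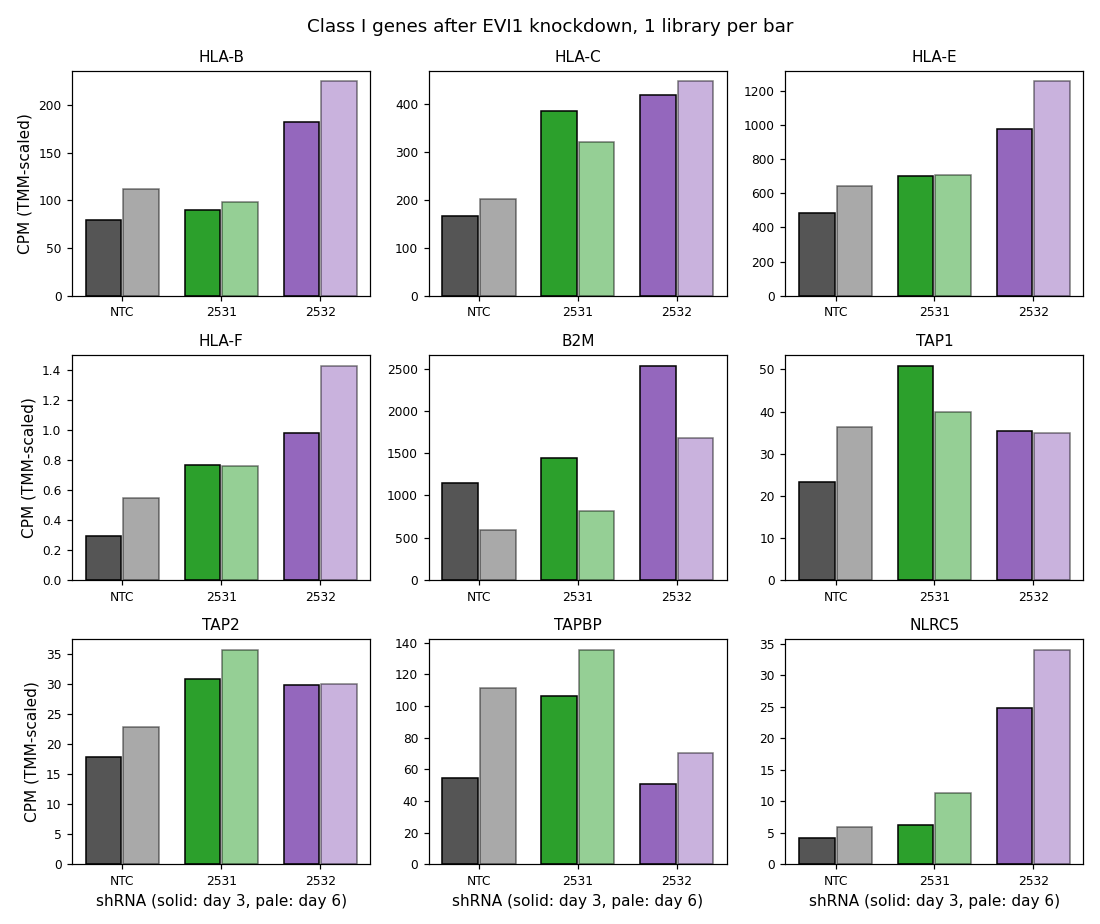
Level of each of the 9 genes (vertical axis, TMM-scaled CPM from 0, a scale of its own per panel) in NTC, shEVI1-2531 and shEVI1-2532 cells (horizontal axis), with 1 library per bar, solid for day 3 and pale for day 6. *NLRC5*, *B2M*, *HLA-B* and *HLA-E* are highest with shEVI1-2532, and *TAPBP* is highest with shEVI1-2531.

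Each shRNA was tested against NTC with day as a block, by edgeR's quasi-likelihood test over 18606 genes. With shEVI1-2532, 7 of the 9 genes rose, against 21.2% of genes tested. They were *NLRC5* (log2 2.53, SE 0.19), *HLA-F* (1.53, SE 0.33), *B2M* (1.33, SE 0.14), *HLA-C* (1.23, SE 0.15), *HLA-B* (1.10, SE 0.14), *HLA-E* (0.99, SE 0.14) and *TAP2* (0.56, SE 0.16), with edgeR adjusted p from 1.36e-06 for *NLRC5* to 0.0159 for *TAP2*. *TAP1* had 0.25 (edgeR adjusted p = 0.358) and *TAPBP* -0.40 (edgeR adjusted p = 0.0700, with 19.9% of genes tested called lower). With a library left out, its arm holds 1 library and the spread comes from the other groups, with 1 residual degree of freedom. Without NTC day 3, or without shEVI1-2532 day 3, *TAP2* missed the threshold (log2 0.38 and 0.43), while *TAPBP* then passed as lower (log2 -0.76 and -0.50). *TAPBP* also passed as lower without either shEVI1-2531 library (log2 -0.39 and -0.40), and without NTC day 6 *TAP1* passed as higher (log2 0.70). *TAP2* also missed it with scaling to library totals or without the day in the model. With scaling to library totals *TAPBP* passed as lower (log2 -0.70). The other 6 genes passed in each of the 12 alternatives run.

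With shEVI1-2531, 4 of the 9 genes rose, against 9.49% of genes tested. *HLA-C* had a log2 change of 0.95 (SE 0.15, edgeR adjusted p = 0.00109), *NLRC5* 0.74 (SE 0.18, 0.0149), *TAP2* 0.71 (SE 0.16, 0.0109) and *TAPBP* 0.61 (SE 0.16, 0.0241). *HLA-B* had 0.00 with an interval of -0.29 to 0.29. Without NTC day 3, *TAP2* (log2 0.55) and *TAPBP* (0.27) missed the threshold, without shEVI1-2531 day 3 *TAPBP* (0.42) did, and without NTC day 6 or shEVI1-2531 day 6 *NLRC5* did (0.69 and 0.56). Without NTC day 6 *TAP1* passed as higher (log2 1.08), without shEVI1-2531 day 6 *HLA-E* (0.54), *HLA-F* (1.29) and *TAP1* (0.97) did, and without either shEVI1-2532 library 7 of the 9 genes passed, *HLA-E*, *B2M* and *TAP1* being added. Scaled to library totals, 2 of the 9 passed, *HLA-C* and *TAP2*, and without the day in the model 0. With both shRNAs taken as 1 group, none of the 9 passed in edgeR, against 0.849% of genes called higher, although 6 of the 9 had an unadjusted p under 0.05 and DESeq2 called 4. That fit has no term for the shRNA, so a difference between the shRNAs enters its error. *HLA-C* came nearest (log2 1.10, SE 0.20, edgeR adjusted p = 0.0538) and *NLRC5* had the highest mean (log2 1.90, SE 0.67, edgeR adjusted p = 0.160).

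The difference between the shRNAs was tested directly in the same fit. It passed for 5 of the 9 genes, against 24.2% of genes tested in either direction, 12.2% higher and 12% lower with shEVI1-2532. On the log2 scale, shEVI1-2532 minus shEVI1-2531 was 1.79 for *NLRC5* (SE 0.18, edgeR adjusted p = 6.08e-05), 1.10 for *HLA-B* (SE 0.14, 0.000183), 0.93 for *B2M* (SE 0.14, 0.000508) and 0.65 for *HLA-E* (SE 0.14, 0.00513). *TAPBP* differed the other way, by -1.01 (SE 0.17, edgeR adjusted p = 0.00110). *HLA-C* had 0.29 (interval -0.03 to 0.61) and *TAP2* -0.15 (-0.50 to 0.21), and neither passed. Without shEVI1-2531 day 6 the difference of *HLA-E* was 0.43 and missed the threshold, while that of *TAP1* passed (log2 -0.71). Without the day in the model only *NLRC5* and *HLA-B* passed.

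**Figure D3:**
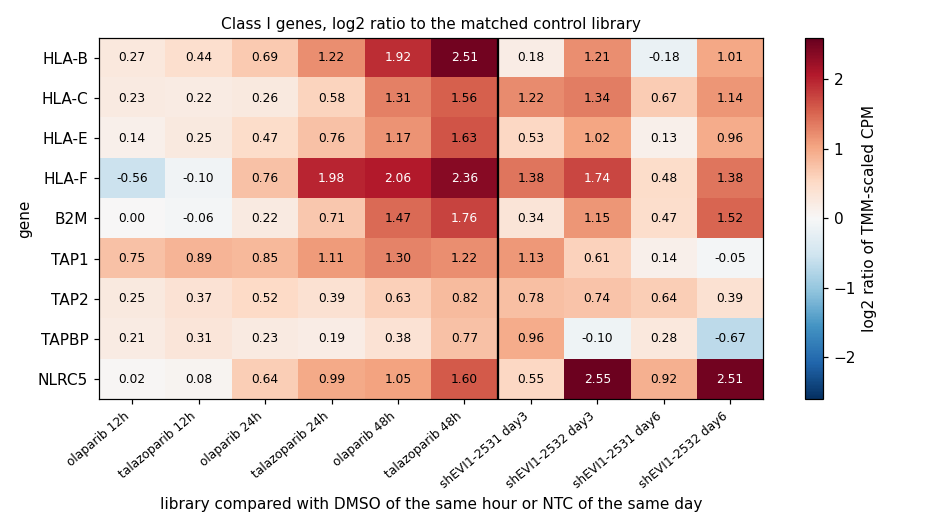
Log2 ratio of TMM-scaled CPM, as colour and printed value, for the 9 genes (vertical axis) in the 10 pairs of libraries (horizontal axis), PARPi against DMSO of the same hour to the left of the line and shRNA against NTC of the same day to its right. Ratios of *HLA-B* reach 2.51 with talazoparib at 48 h and those of *NLRC5* 2.55 with shEVI1-2532 at day 3, and *TAPBP* is at -0.67 with shEVI1-2532 at day 6.

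Other genes of the pathway were read from lists. Of the 5 immunoproteasome genes, which shape peptides for class I, 0 passed in the mean PARPi effect and 2 passed with an effect that grew with time, *PSMB9* (slope 0.52, edgeR adjusted p = 0.00175) and *PSMB10* (0.41, edgeR adjusted p = 0.0171). Over all genes tested, 10% passed with a growing effect. *PSMB9*, which lies head to head with *TAP1*, was at 21.0 CPM with DMSO, 53.9 with olaparib and 46.3 with talazoparib at 48 h. At day 3 *PSMB9* was at 10.7 CPM in NTC, 22.9 with shEVI1-2531 and 11.2 with shEVI1-2532, and at day 6 at 11.7, 9.48 and 8.32. The day 6 log2 ratio with shEVI1-2532 was -0.50 (counting interval -0.62 to -0.37). Neither shRNA passed for it over both days (edgeR adjusted p = 0.330 for shEVI1-2531 and 0.486 for shEVI1-2532). With shEVI1-2532 0 of the 5 rose and 1 fell, the activator subunit *PSME2* (log2 -0.39, edgeR adjusted p = 0.0486), a gene chosen after its value was seen, which is a share near the 19.9% of all genes called lower. Of the 4 constitutive proteasome genes and the 6 genes of peptide trimming and chaperones, 0 passed in the mean PARPi effect, its change with time or the mean knockdown effect. With shEVI1-2531 alone, 2 of those 4 and 3 of those 6 were higher, against 9.49% of all genes. With shEVI1-2532, 1 of the 4 constitutive genes was lower, against 19.9%. The chaperone list had 2 of 6 higher with shEVI1-2532, *ERAP1*, which trims peptides, and the tapasin relative *TAPBPL*, against 21.2% of all genes, also chosen after their values were seen (log2 0.65 and 1.31, edgeR adjusted p = 0.00648 and 8.20e-05).

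Among 12 transcription factors known to act on class I promoters, 1 rose in the mean PARPi effect, against 3.16% of all genes. Another 1 passed with a falling effect over time, against 9.82% of all genes. *IRF1*, an interferon response factor, was at 16.9, 13.5 and 12.1 CPM with DMSO, 24.1, 22.3 and 23.1 with olaparib and 25.4, 22.2 and 30.3 with talazoparib. Every treated library was above every DMSO library, the untreated one (23.7 CPM) lay among the treated, and the mean log2 change was 0.80 (edgeR adjusted p = 0.0317). *IRF1* was also higher with shEVI1-2531 (log2 0.88, edgeR adjusted p = 0.00571) and with shEVI1-2532 (0.72, edgeR adjusted p = 0.00668). *RFXAP*, a subunit of the RFX complex, had a slope of -0.67 (edgeR adjusted p = 0.00102).

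Transcripts of the 5 interferon genes read, with IFNA1 for the IFNA family, were scarce. IFNA1 and IFNG had 0 counts in all 16 libraries, which allows up to 0.0536 CPM in the shallowest, IFNL1 had at most 1 count and IFNE at most 2. IFNB1 had 4 counts with DMSO, 14 with olaparib and 16 with talazoparib at 24 h, and 12, 14 and 5 at 48 h. It missed the threshold in the mean PARPi effect (edgeR adjusted p = 0.237). At days 3 and 6 it had 6 and 5 counts in NTC, 3 and 4 with shEVI1-2531 and 0 and 0 with shEVI1-2532. Of 11 genes of interferon receptor signalling, *STAT2* rose in the mean PARPi effect (log2 0.67, edgeR adjusted p = 0.0377), against 3.16% of all genes. The effect on 2 of the 11, the interferon gamma receptor chain *IFNGR1* and the feedback inhibitor *SOCS1*, grew with time (slopes 0.57 and 0.42, edgeR adjusted p = 0.000230 and 0.0210), against 10% of all genes. With shEVI1-2532, 5 of the 11 were higher, the receptor chains *IFNAR1*, *IFNAR2*, *IFNGR1* and *IFNGR2* and the kinase *JAK1*, and 2 were lower, *STAT2* and *IRF9*, subunits of the factor that type I interferon activates. Of all genes, 21.2% were called higher and 19.9% lower, so the share of lower genes is near that of all genes. Those other than *IFNGR1* and *STAT2* were named after their values were seen. Of 8 interferon-stimulated genes outside the pathway, the effect on 4, *IFI6*, *ISG15*, *GBP2* and *IFIT1*, grew with time under PARPi (slopes 1.02, 0.78, 1.19 and 0.47), against 10% of all genes. *IRF7* passed in the mean (log2 0.69, edgeR adjusted p = 0.0397), against 3.16% called higher. In the knockdown, 7 of the 8 could be tested. With shEVI1-2531, 3 fell and 0 rose, against 7.9% of all genes called lower and 9.49% higher, and with shEVI1-2532, 4 fell and 1 rose, against 19.9% and 21.2%. *IFIT1*, *MX1* and *OAS1*, genes of antiviral defence, fell with both (log2 -1.92, -1.46 and -2.25 with shEVI1-2531, -3.93, -2.11 and -3.06 with shEVI1-2532, edgeR adjusted p of at most 0.0410), *MX1* and *OAS1* being named after their values were seen. *ISG15* fell and the GTPase gene *GBP2* rose with shEVI1-2532 (log2 -1.78 and 1.82, edgeR adjusted p = 0.00332 and 0.00315). The median log2 ratio of this list was -0.15 and -1.94 with shEVI1-2531 and -0.71 and -2.52 with shEVI1-2532 at days 3 and 6, on the other side of 0 from the 9 class I genes in the same libraries. In DMSO it was 1.61 at 48 h against 12 h. The difference between the lists was not tested.

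**Figure D4:**
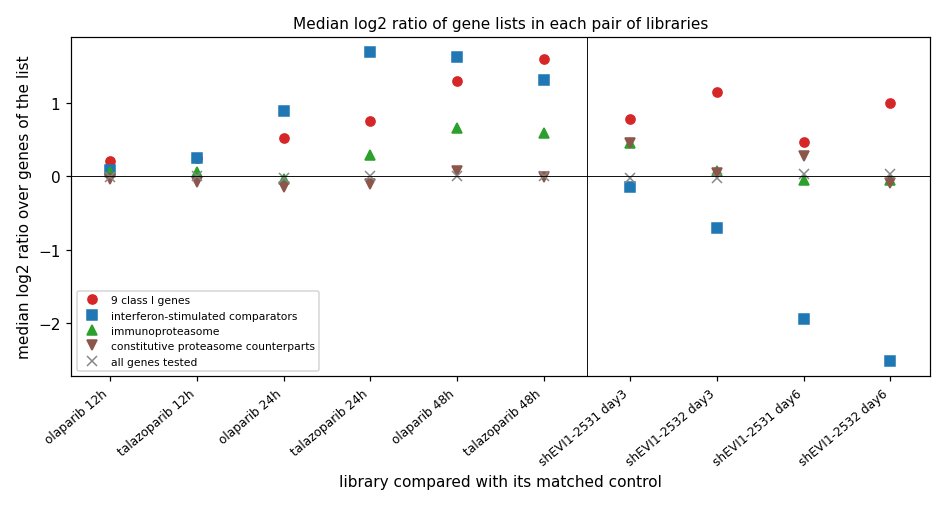
Median log2 ratio over the genes of each list (vertical axis) in the 10 pairs of libraries (horizontal axis), PARPi to the left of the line and knockdown to its right: the 9 class I genes, the interferon-stimulated comparators, both proteasome lists and all genes tested. Class I medians are above 0 in each pair, and the interferon-stimulated list lies above 0 with PARPi and reaches -2.52 with shEVI1-2532 at day 6.

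Among 9 genes of class I-like molecules, of which 8 could be tested, *MR1*, which presents vitamin metabolites, rose in the mean PARPi effect (log2 0.97, edgeR adjusted p = 0.0357). The lipid-presenting *CD1D* and the Fc receptor *FCGRT*, which both pair with B2M, had growing effects (slopes 1.62 and 0.69), and *ULBP1*, a stress ligand of the NK receptor NKG2D, had a falling one (-2.49), each with an edgeR adjusted p of at most 4.11e-06. In the mean knockdown effect *CD1D* rose (log2 4.33, edgeR adjusted p = 0.0434) and *ULBP1* fell (-3.88, edgeR adjusted p = 0.0147). Of 3 Polycomb genes, the effect on the methyltransferase *EZH2* fell with time (slope -0.65, edgeR adjusted p = 2.51e-05). Of 4 genes listed for removal of class I from the surface, of which 3 could be tested, *IRGQ* rose in the mean PARPi effect (log2 0.78, edgeR adjusted p = 0.0480). Over all genes tested, 3.16% rose in the mean PARPi effect, and 10% had a growing and 9.82% a falling effect over time. In the mean knockdown effect 158 of 18606 genes tested were called higher and 150 lower. The class I pseudogene HLA-H had a growing effect (slope 0.80, edgeR adjusted p = 9.54e-05), which is uncertain because it shares sequence with the heavy chain genes.

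Markers of monocytes moved in the same libraries. Of 8 monocyte genes, the PARPi effect on 6 grew with time, against 10% of all genes, 5 were higher with shEVI1-2531, against 9.49%, and 6 with shEVI1-2532, against 21.2%. The largest slopes were those of *CD14*, a coreceptor for bacterial lipopolysaccharide (2.12), *LYZ*, which encodes lysozyme (1.45), and the integrin gene *ITGAM* (1.11), followed by the Fc receptor gene *FCGR1A* (0.91). The summed level of the 8 was 493 to 636 CPM with DMSO, 531 to 2454 with olaparib and 624 to 4732 with talazoparib, and 369 to 441 with NTC, 1322 to 1357 with shEVI1-2531 and 5050.0 to 6347 with shEVI1-2532. *CD14*, *LYZ*, *ITGAM*, *FCN1* and *CD163* were higher with both shRNAs, and *CD163* was at 0 in 3 libraries.

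Of 5 progenitor genes, the PARPi effect on 2 of the 4 that could be tested fell with time, *CD34* (slope -0.83) and the receptor gene *KIT* (-0.80), against 9.82% of all genes. The summed level of the 5, most of it *CD34* with DMSO and NTC, was 409 to 557 CPM with DMSO, 276 to 459 with olaparib and 166 to 561 with talazoparib, and 370 to 696 with NTC, 127 to 142 with shEVI1-2531 and 16.6 to 26.8 with shEVI1-2532. With shEVI1-2532, 4 of 5 were lower, against 19.9% of all genes. With shEVI1-2531, 3 of 5 were lower, against 7.9%, and *KIT* was higher (log2 0.71, edgeR adjusted p = 0.0321). *SPINK2* fell in the mean knockdown effect (log2 -2.41, edgeR adjusted p = 0.0296), in which 150 of 18606 genes tested were called lower.

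Dendritic markers summed to 11.2 to 28.1 CPM with DMSO, 13.9 to 75.1 with olaparib and 12.8 to 61.6 with talazoparib. The effect on 3 of 5, *CD1A*, *CD1C* and *CD207*, grew with time, against 10% of all genes. *CD207* and *FCER1A* rose in the mean PARPi effect (log2 1.79 and 3.71, edgeR adjusted p = 0.0440 and 0.0207), against 3.16% of all genes. *FCER1A* was scarce, with 1 to 4 counts per DMSO library, 4 to 60 with olaparib and 4 to 64 with talazoparib. In the mean knockdown effect *CD1C* rose and *CLEC9A* fell (log2 2.35 and -1.72, both edgeR adjusted p = 0.0448). Of 18606 genes in that test, 158 were called higher and 150 lower. Of 5 epithelial genes listed for the 5637 line, *KRT5* was at 0 in all libraries and *EPCAM* had at most 3 counts, while the keratin genes *KRT7*, *KRT8* and *KRT18* were detected in all. The 5 summed to 14.2 to 16.7 CPM with DMSO and up to 27.9 with talazoparib, and to 16.2 to 25.7 with NTC, 17.8 to 18.99 with shEVI1-2531 and 35.8 to 36.2 with shEVI1-2532. The effect on *KRT8* grew with time (slope 0.48, edgeR adjusted p = 0.0128). *KRT8* and *KRT18* were higher with shEVI1-2532 (log2 1.66 and 1.45, edgeR adjusted p = 3.93e-05 and 9.49e-05), against 21.2% of all genes. *KRT7* fell in the mean knockdown effect (log2 -2.75, edgeR adjusted p = 0.0434). Of 4 lymphoid genes, which summed to 22.2 to 41.4 CPM over all libraries, *MS4A1* was at 0 throughout, *CD3E*, *CD79A* and *NKG7* were detected in all, and *CD3E* fell in the mean knockdown effect (log2 -2.04, edgeR adjusted p = 0.0434). The part of these cell states in the class I values was not tested.

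Over the 10 pairs of libraries, the genes whose log2 ratios ran most like the mean of the 9 class I genes were sought among 9114 well-expressed genes. Outside the 9 they were *TFEB*, a regulator of lysosome genes (Pearson r 0.987), *MXD4*, a MYC antagonist (0.982), *STN1*, which acts at telomeres (0.976), *PIK3R6*, a regulatory subunit of PI3 kinase gamma (0.974), and *NAGK*, a sugar kinase (0.973). Each of the 9 is itself part of the mean, which raises its own r, so these values do not compare evenly with those of outside genes. Of the 9, *HLA-E* was closest (0.974), *B2M* had 0.910, *HLA-C* 0.894 and *HLA-B* 0.885. *NLRC5* (0.668), *TAP2* (0.656), *TAP1* (0.346) and *TAPBP* (0.119) followed the mean less closely, and *HLA-F* was below the level limit. These values describe 10 points that share control libraries and depth.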

How the data were processed

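RNA-Seq of 16 MUTZ-3 libraries, 1 per condition, was analysed. The authors deposited raw counts per gene from featureCounts, after alignment with STAR to GRCh38 per the labels, and TPM over the whole gene span, which only served as a check. The libraries were prepared with a stranded mRNA kit, and whether counting used strand is not given in the sources used here. The annotation release is likewise not given, and 7 of the 9 genes have the coordinates of GENCODE 29. Samples were grouped by their titles.

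A gene was kept where 3 of the 9 PARPi libraries, or 2 of the 6 knockdown libraries, each held 10 counts or more, which all 9 class I genes passed. Counts were TMM-normalized and fitted with edgeR 4.0.16 (quasi-likelihood) in R 4.3.3, with hour or day as a factor, and p-values were adjusted after Benjamini-Hochberg over all genes, threshold 0.05. The residual degrees of freedom were 4 for the PARPi effects, 2 for the slope on log2 hours, 3 for the pooled knockdown and 2 for the single shRNAs. The untreated library entered ratios only. Ratios of single libraries carry 95% intervals for counting error and were called at 2-fold. Correlations used genes with a mean log2 CPM above 3. Alternatives were DESeq2 1.42.0, other scalings and filters, models without hour or day, and libraries left out, as given in the closing section. The scripts were tested on simulated data. The 9 genes are all named; listed genes are named where they passed the mean PARPi effect, its change with time or the mean knockdown effect, at most 4 a list, and others where the text says so or a marker list is described. The class I genes, lists and tests were chosen with earlier results of these data known. A listed marker is not reported here.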

Additional observations from a re-analysis of the deposited data

Results flagged for a closer look

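The difference between an inhibitor and DMSO was itself different between hours for 6 class I genes, by the edgeR test of the change with time. In log2 units per doubling of hours it changed by 0.92 for *HLA-B*, 0.59 for *HLA-C*, 0.59 for *HLA-E*, 1.23 for *HLA-F*, 0.81 for *B2M* and 0.62 for *NLRC5*. In each of the 5 alternatives run, all 6 passed. At 12 h *HLA-F* was not above DMSO with olaparib or talazoparib, with log2 ratios of -0.56 and -0.10. *B2M* was not above DMSO with talazoparib at that hour, with a log2 ratio of -0.06.

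The shRNAs differed from each other for 5 class I genes by the edgeR test of their difference. In log2 units, shEVI1-2532 minus shEVI1-2531 was 1.79 for *NLRC5*, 1.10 for *HLA-B*, 0.93 for *B2M*, 0.65 for *HLA-E* and -1.01 for *TAPBP*. *NLRC5* and *HLA-B* passed in each of 12 alternatives, *B2M* and *TAPBP* in 11 and *HLA-E* in 10. MECOM was also lower with shEVI1-2532 than with shEVI1-2531, at 5.14 against 13.2 CPM at day 3 and 4.31 against 17.5 at day 6, and summed monocyte markers were higher. Their part in the difference was not tested. Between groups of 1 library, no library could be judged as standing apart from its replicates.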

How the results depend on the processing

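Each test was repeated with 5 to 12 alternatives, and of 801 values for single class I genes 682 kept their direction and their side of the threshold. Counts of class I genes called were 1 in the mean PARPi effect, but 7 with DESeq2, 2 with upper quartile scaling, 8 without a filter on low counts and 0 without the hour in the model. For olaparib, 1 became 2 without the filter and 0 without the hour, and for talazoparib 1 became 8 with DESeq2, 2 with upper quartile scaling, 8 without the filter and 0 without the hour. With an hour left out, counts ranged from 0 to 8 for the mean, 0 to 4 for olaparib and 0 to 8 for talazoparib. In the mean knockdown effect, 0 became 4 with DESeq2 and 4 without the filter. For shEVI1-2531, 4 became 2 with scaling to the library total and 0 without the day, and ranged from 2 to 7 with a library left out. Leaving out libraries for each shRNA and their difference, other scalings for DMSO over time and the sum of *HLA-B* and *HLA-C* were chosen after seeing the data. The 5 differences between shRNAs became 2 without the day. Genes past 2-fold with shEVI1-2532 fell from 6 and 5 at days 3 and 6 to 3 and 3 with library total scaling, and 1 became 2 for DMSO at 48 h under upper quartile scaling and for NTC at day 6 under library total scaling. Over all genes, calls ranged from 0 to 3768 for the mean PARPi effect (718 as reported), 0 to 977 for olaparib (110), 0 to 3954 for talazoparib (688), 0 to 5 for the difference of inhibitors (0), 0 to 2728 for the mean knockdown effect (308), 565 to 3999 for shEVI1-2531 (3235), 3536 to 8482 for shEVI1-2532 (7648) and 921 to 5118 for the difference of shRNAs (4505). The causes were not tested.

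Directions turned only for results that had not passed as reported. *HLA-B* with shEVI1-2531 (0.00) turned to -0.0050 (DESeq2), -0.014 (upper quartile), -0.17 (library total), -0.0028 (no filter), -0.021 (at least 50 counts) and -0.019 (no day), and lay between -0.18 and 0.17 with a library left out. *TAPBP* in the mean knockdown effect turned to -0.023 (library total) and lay between -0.16 and 0.55 with a library left out, and *TAP1* there between -0.00020 and 0.91. *TAP1* with shEVI1-2532 turned to -0.052 (library total) and lay between -0.19 and 0.70, and *TAP2* between the inhibitors lay between -0.026 and 0.16 with an hour left out. Library total scaling moves all log2 ratios by -0.19 and -0.28 for olaparib and talazoparib at 48 h, by -0.17 for shEVI1-2531 on both days, and by -0.26 and -0.35 for shEVI1-2532 at days 3 and 6.

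No paired analysis was possible because each condition holds 1 library, and hour and day were already in the model. The change with time was not refitted with an hour left out, since no residual degrees of freedom would remain. *HLA-F* rests on 21 to 287 counts per library, the fewest of the 9. RNA was measured here, and surface class I was not.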
